A study of Mus musculus with 6 samples.

Results

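The oxidative phosphorylation genes were chosen from the deposited gene table by symbol: subunits and assembly factors of complex I (Nduf), the 4 succinate dehydrogenase subunits, subunits of complex III (Uqcr), complex IV (Cox4 to Cox8) and ATP synthase (Atp5), and the protein-coding genes of the mitochondrial genome, with rows named as pseudogenes by the ending -ps left out. This gave 113 of 60832 rows, of which 100 are nuclear and 13 are mitochondrial. The rule also dropped 14 -ps rows. Of the nuclear members, 7 are core subunits of complex I, 34 are accessory subunits and 8 are assembly factors, while 4 belong to complex II, 8 to complex III, 21 to complex IV and 18 to complex V. Among the mitochondrial members, 7 belong to complex I, 1 to complex III, 3 to complex IV and 2 to complex V. GENCODE M21 annotates 4 of the nuclear members, Ndufa11b, Ndufb4c, Ndufs6b and Cox6c2, as processed pseudogenes although their symbols lack the ending. The symbol Atp5o stood on a pair of rows, of which 1 had no count.

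The cells studied were labelled as LSECs, which form the wall of the liver sinusoids. By the study's methods they were taken with beads against CD146 from digested liver metastasis tissue of male BALB/c-Nu mice (aged 4 to 6 weeks) carrying HCT116 xenografts, which are grown from a human colorectal cancer line, and by the labels they were kept in culture for 24 h. There were 3 libraries from bevacizumab-sensitive xenografts (sensitive group) and 3 from xenografts that had become resistant under bevacizumab, an antibody against VEGF-A, at 10 mg/kg (resistant group), for 42 days or 7 weeks, as different sections of the study state. The methods describe a vehicle arm given IgG, but the labels name the sensitive libraries only by their response to the drug. All tumors derive from 1 cell line, and nothing states that the 3 libraries of a group came from separate mice, so p-values measure the spread between these libraries. The comparison of the groups asks which transcripts differ between cells labelled as LSECs from sensitive and from resistant xenografts. The treatment of the sensitive libraries is not given, so resistance and exposure to the drug cannot be told apart.

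Oxidative phosphorylation passes electrons from NADH (complex I) or succinate (complex II) through complexes III and IV to oxygen and uses the resulting proton gradient to make ATP (complex V). Most subunits are encoded in the nucleus, made in the cytosol and imported, whereas the core membrane subunits are encoded by the mitochondrial genome, whose genes are transcribed as long polycistronic RNAs and cut apart. Sinusoidal endothelial cells and macrophages both carry this system, so its transcripts do not mark a cell type, and in bulk RNA fewer cells of a type and less RNA per cell cannot be told apart.

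Total counts on genes were between 17599326 and 20726684 per library, and 15474 genes passed the filter on low counts, among them 93 nuclear and 12 mitochondrial members. The 14 macrophage and Kupffer cell markers summed to between 24417 and 37648 CPM (counts per library total, scaled to CPM), against 626 to 1207 CPM for 10 sinusoidal endothelial markers and 54.0 to 440 CPM for 10 pan-endothelial markers, and no gene of these 3 lists was at 0 in any library. Mcam, which encodes the CD146 used for isolation, was at 0.303 to 3.84 CPM. The labelled cell type was therefore a minor part of the marker signal, in both groups. Neutrophil markers summed to 5265, 6905 and 642 CPM in sensitive replicates 1, 2 and 3 and to 2106, 1560 and 337 CPM in the resistant replicates. Sensitive replicate 2 stood apart from the other 5 libraries: it was above all of them in 4021 and below all of them in 7363 of the genes tested. The fold changes of the members are therefore given with and without it, as are the counts of calls by edgeR; DESeq2 was run with all libraries only.

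**Figure D1:**
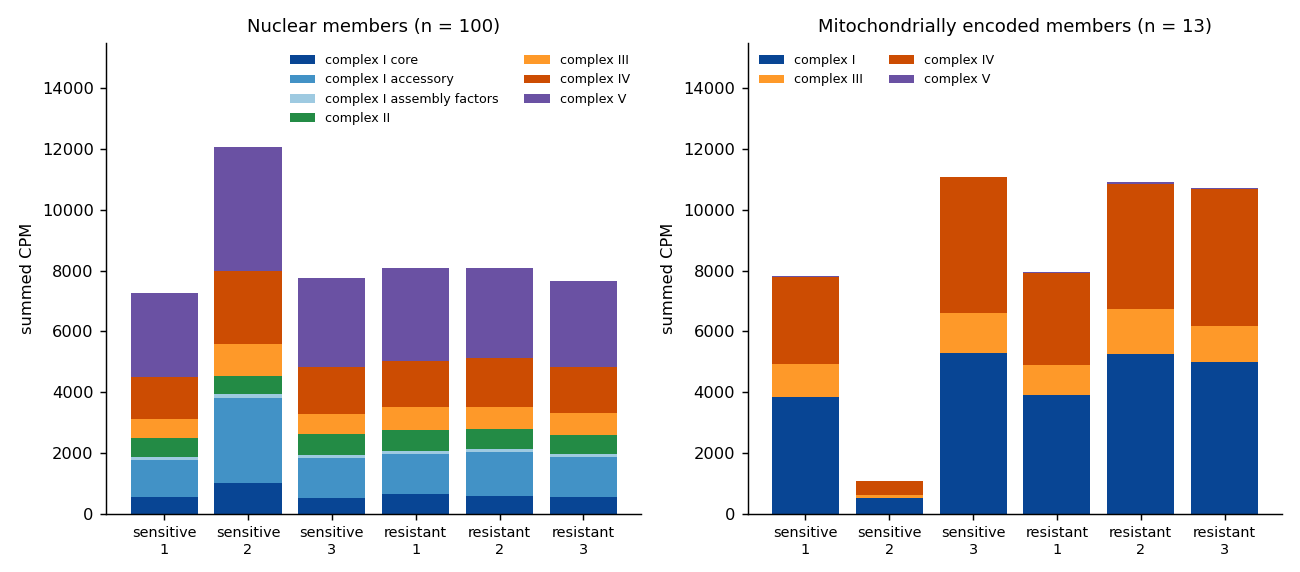
Summed CPM of the 100 nuclear members (left) and of the 13 mitochondrially encoded members (right) in each of the 6 libraries, stacked by complex. Sensitive replicate 2 is the highest bar on the left at 12073 CPM and the lowest on the right at 1069 CPM.

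The nuclear members together made up 7256, 12073 and 7772 CPM in sensitive replicates 1, 2 and 3 and 8081, 8070 and 7663 CPM in resistant replicates 1, 2 and 3. Apart from sensitive replicate 2 the libraries of both groups overlapped. The mitochondrial members made up 7830, 1069 and 11086 CPM in the sensitive and 7941, 10907 and 10732 CPM in the resistant replicates. Sensitive replicate 2 was thus the highest library for the nuclear members and the lowest for the mitochondrial members. The ratio of mitochondrial to nuclear member counts was 1.08, 0.0886 and 1.43 in the sensitive and 0.983, 1.35 and 1.40 in the resistant libraries. In each group the replicate numbered 1 had the lower ratio of the libraries other than sensitive replicate 2.

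Of the 93 nuclear and 12 mitochondrial members tested, 0 passed adjustment (Benjamini-Hochberg, 0.05) in the quasi-likelihood test of edgeR, and neither did any other gene (0% of those tested). Before adjustment 0 members had a p-value under 0.05, beside 0.536% of all genes called higher and 2.54% called lower in the resistant group. DESeq2 called 0.155% of the genes it adjusted and 0 members, and put 4 nuclear members (Ndufb7, Ndufs6b, Atp5e and Uqcrfs1) at an unadjusted p-value under 0.05, or 4.3% of those tested beside 4.74% of all genes. The median log2 fold change, resistant over sensitive, was −0.29 for the nuclear members, with 22 above 0 and 71 below, and 0.56 for the mitochondrial members, with 11 above 0 and 1 below, beside 0.01 over all genes tested. Without sensitive replicate 2 these medians were 0.09 and 0.07, and the sign of the fold change turned in 51 nuclear members and in 1 mitochondrial member, mt-Nd2. In that fit 3 nuclear members had an unadjusted p-value under 0.05, all higher in the resistant group (Ndufa2, Ndufa11 and Atp5d), where 1.2% of all genes were called higher and 2.76% lower, and 0 members passed adjustment.

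**Figure D2:**
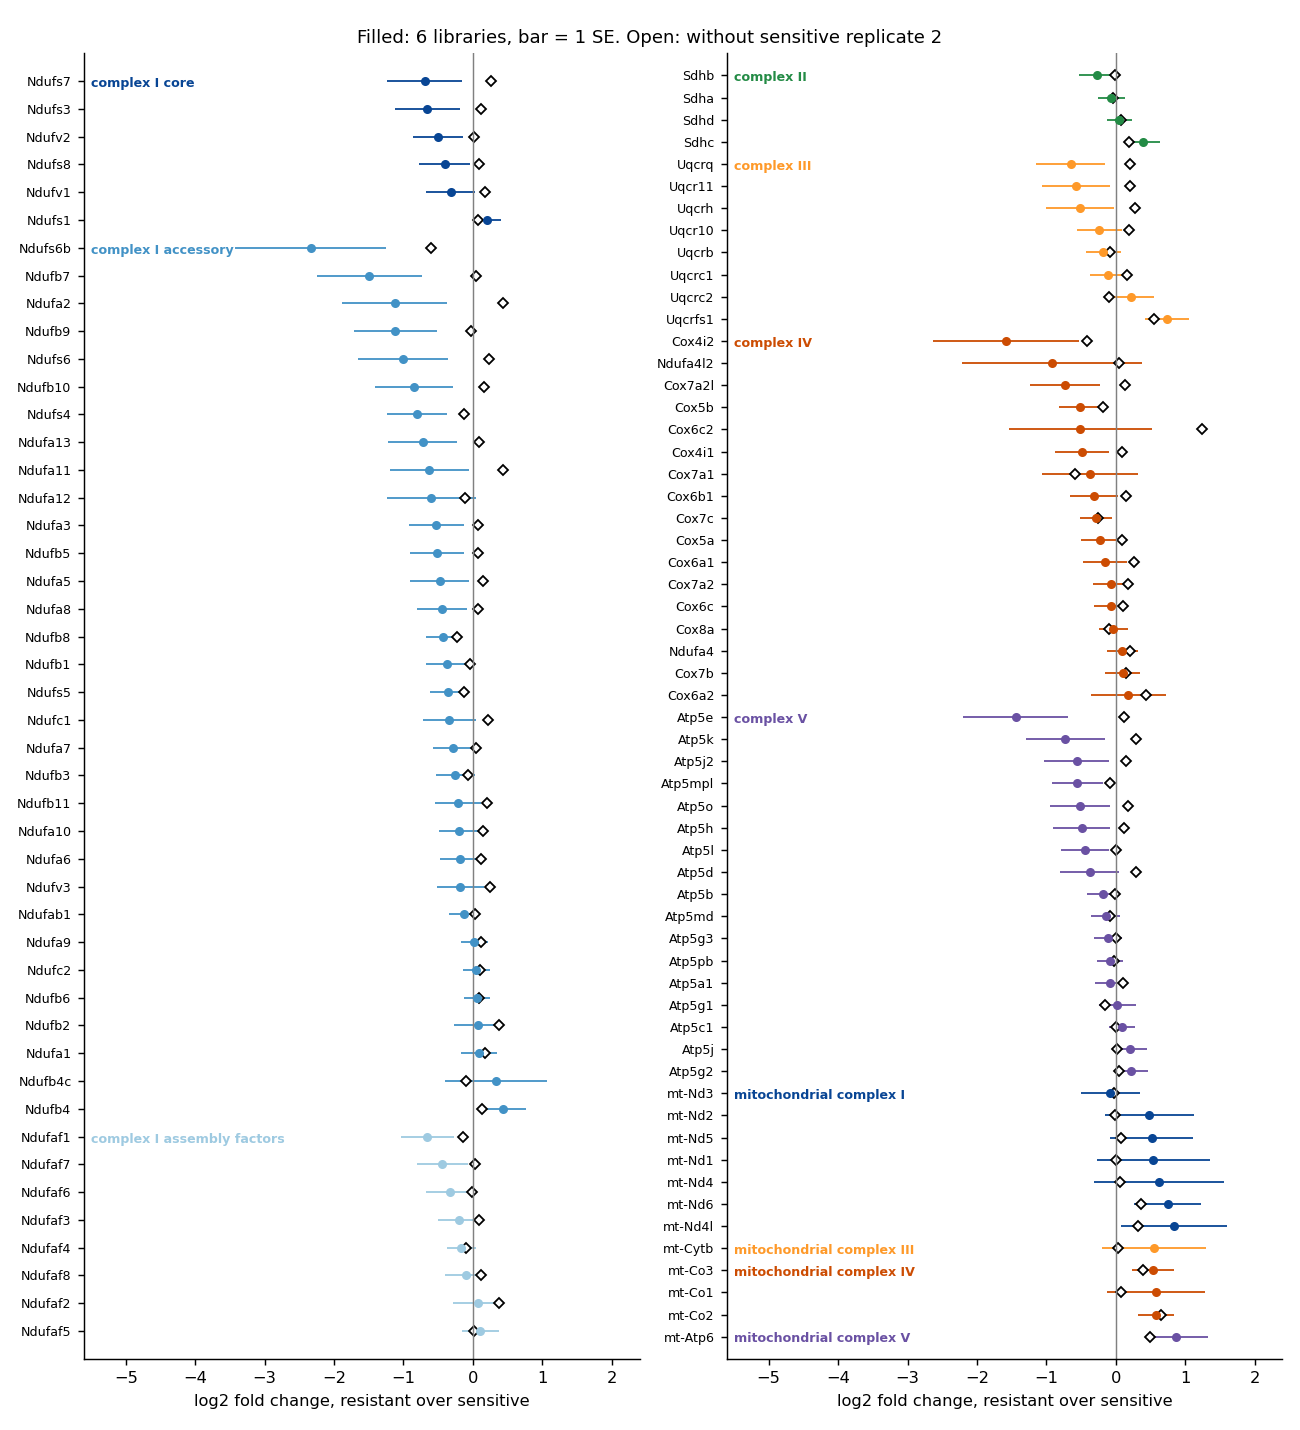
Log2 fold change of members tested, resistant over sensitive, by complex; filled points with bars of 1 SE are from all 6 libraries and open diamonds from the fit without sensitive replicate 2. Most nuclear members lie left of 0 and most mitochondrial members right of 0 with 6 libraries, and both sets lie near 0 without that library, where the medians are 0.09 and 0.07.

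Among the mitochondrial genes, mt-Co1, the catalytic core of complex IV, had the highest level per length. Its FPKM (counts scaled by library total and gene length, as deposited) was 1814, 259 and 2858 in the sensitive and 1914, 2606 and 2879 in the resistant replicates. It took 35.8% to 41.4% of all mitochondrial member counts in every library, sensitive replicate 2 included. mt-Nd1, a core subunit of the membrane arm of complex I, stood at 1302, 98.6 and 1794 FPKM in the sensitive and 1359, 1778 and 1515 FPKM in the resistant replicates. mt-Cytb, which carries the b-type hemes of complex III, stood at 955, 85.2 and 1139 FPKM in the sensitive and 858, 1295 and 1029 FPKM in the resistant replicates. For all 3 genes the 5 libraries other than sensitive replicate 2 overlapped between groups, and that library was far below the median of the others, at 0.0995 times for mt-Co1, 0.0651 times for mt-Nd1 and 0.0828 times for mt-Cytb.

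Among the other mitochondrial genes of complex I, sensitive replicate 2 held 0.130 of the median of the other 5 libraries for mt-Nd2, 0.154 for mt-Nd5, 0.0300 for mt-Nd4 and 0.250 for mt-Nd6. mt-Nd6 is transcribed from the opposite strand to the other mitochondrial protein-coding genes. Its FPKM was 552, 152 and 609 in the sensitive and 509, 793 and 918 in the resistant replicates, a log2 fold change of 0.75 ± 0.48 (SE; edgeR adjusted p = 0.940) with all libraries and 0.36 without sensitive replicate 2. mt-Nd4 had 391 counts in sensitive replicate 2 and between 11697 and 15224 in the others. Over the 12 mitochondrial members tested, sensitive replicate 2 lay below the other 5 libraries in 10 and under 0.5 times their median in 9, beside 7363 and 4356 of the 15474 genes tested.

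**Figure D3:**
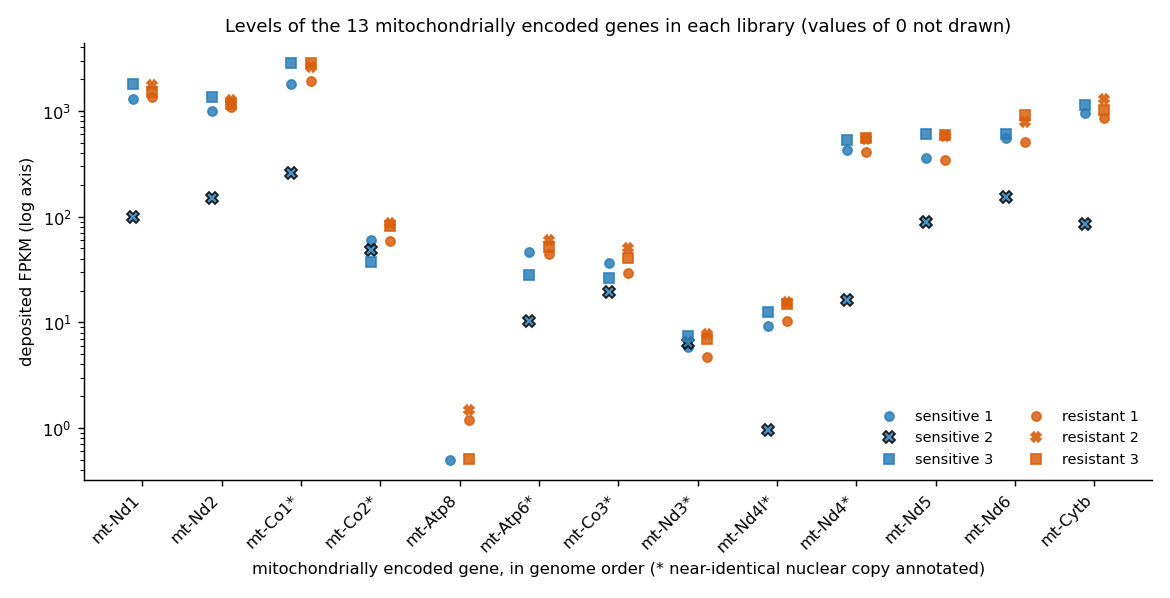
Deposited FPKM (log axis) of each mitochondrially encoded gene in genome order, with blue symbols for the sensitive and orange for the resistant libraries and a black edge on sensitive replicate 2; asterisks mark genes with a near-identical annotated nuclear copy. Sensitive replicate 2 lies far below the rest for the abundant genes (98.6 against at least 1302 FPKM for mt-Nd1) and among them for mt-Co2 and mt-Nd3.

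By level per length, mt-Co2, mt-Co3, mt-Atp6, mt-Nd3, mt-Nd4l and mt-Atp8 were far below the other 7 mitochondrial genes, and 5 of these 6 have an annotated nuclear copy over nearly their whole length. In GENCODE M21 transcripts, 7 of the 13 mitochondrial members have a copy elsewhere that is at least 99% identical over at least a read length. The other 6 have none among these transcripts. The genome itself was not searched, so a copy without an annotated transcript would be missed. mt-Atp8 starts between mt-Co2 and mt-Atp6, and the stretch between the copies of those genes was not searched. The 7 annotated copies lie next to each other on chromosome 1 (GRCm38). They match all but the last bases of mt-Co2, mt-Atp6, mt-Co3, mt-Nd3 and mt-Nd4l, the first 876 of 1378 bases of mt-Nd4 and the last 483 of 1545 bases of mt-Co1. Reads from identical stretches cannot be placed by sequence, as the printed stretch of mt-Co2 shows, in contrast to mt-Cytb, whose closest annotated copy, Gm11410 on chromosome 4, is 92.9% identical. A stretch of 100 bases of the mt-Co2 transcript (chrM:7313-7412, GRCm38, plus strand) and of its copy Gm28661 (chr1:24615166-24615265, minus strand) are the same and are printed once. For mt-Cytb (chrM:14445-14544, plus strand) and Gm11410 (chr4:80004289-80004388, plus strand), the 10 bases that differ within the same positions of the transcripts are in capitals.
mt-Co2 and Gm28661: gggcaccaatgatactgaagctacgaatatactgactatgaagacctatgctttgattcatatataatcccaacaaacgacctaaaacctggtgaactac
mt-Cytb: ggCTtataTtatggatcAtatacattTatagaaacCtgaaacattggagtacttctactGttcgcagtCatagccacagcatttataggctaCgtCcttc
Gm11410: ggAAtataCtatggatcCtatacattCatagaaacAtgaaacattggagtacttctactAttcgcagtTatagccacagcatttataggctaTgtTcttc

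For mt-Co2, mt-Co3 and mt-Atp6 the counts of the copy were close to those of the gene, whereas mt-Co1 had at least 56.4 times and mt-Nd4 at least 11.5 times the counts of its partial copy in every library. mt-Co2, which carries the copper center that receives electrons from cytochrome c, had 813, 580 and 525 counts in the sensitive and 841, 1168 and 1065 in the resistant replicates, and Gm28661 had 622, 529 and 399 and 634, 869 and 738. mt-Co3 had 0.960 to 1.15 times and mt-Atp6, the proton channel subunit of ATP synthase, 0.762 to 1.24 times the counts of its copy. mt-Nd3 had fewer counts than its copy in every library, at 34 to 53 against 185 to 220. How the authors' counting treated reads that match both places is not given in the sources used here, so the levels of these genes are uncertain and are not comparable with those of mt-Co1 or mt-Cytb.

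Within these scarce genes the libraries were ordered differently. mt-Co2 stood at 60.5, 48.2 and 37.3 FPKM in the sensitive and 59.3, 86.4 and 81.0 FPKM in the resistant replicates, a log2 fold change of 0.58 ± 0.27 (SE; edgeR unadjusted p = 0.0652, adjusted p = 0.940) that was 0.65 without sensitive replicate 2. mt-Co3 was at 36.6, 19.4 and 25.999 FPKM in the sensitive and 29.6, 50.96 and 40.9 FPKM in the resistant replicates. mt-Atp6 was at 46.2, 10.3 and 28.1 FPKM in the sensitive and 44.0, 59.6 and 51.9 FPKM in the resistant replicates, with a log2 fold change of 0.87 ± 0.45 (SE; edgeR adjusted p = 0.940), the largest of the mitochondrial members, that was 0.50 without sensitive replicate 2, where mt-Co2 had the largest. In all 3 genes the groups overlapped through sensitive replicate 1 and resistant replicate 1. mt-Nd3 was at 5.85, 6.37 and 7.41 FPKM in the sensitive and 4.71, 7.70 and 7.03 FPKM in the resistant replicates, and was the sole mitochondrial member with a log2 fold change below 0 with all libraries. mt-Nd4l had 5 counts in sensitive replicate 2 and 54 to 91 in the others. mt-Atp8, with 0 to 6 counts, was not tested; it overlaps mt-Atp6 as mt-Nd4l overlaps mt-Nd4, and reads in the shared bases may be assigned to either gene or to none.

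The ribosomal RNAs of the mitochondrion, which are not members, did not share the low level in sensitive replicate 2. mt-Rnr1 and mt-Rnr2 together were at 298, 245 and 217 CPM in the sensitive and 200, 174 and 181 CPM in the resistant replicates, so that the groups did not overlap. mt-Rnr1 had a log2 fold change of −0.62 ± 0.20 (SE; edgeR unadjusted p = 0.0183, adjusted p = 0.940), and −0.62 without sensitive replicate 2. Both poly(A) selection and depletion of ribosomal RNA are described for these libraries, and the part of either step in these levels was not tested.

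Nuclear members varied little outside sensitive replicate 2. The values over all genes tested that are set beside theirs were not matched by level, and the part of level was not tested. Over the 92 tested nuclear members with a count in each of the other 5 libraries, the highest of these libraries exceeded the lowest by a median factor of 1.30, and by less than 1.5 in 77 of them (83.7%), beside a median factor of 1.59 and 44.4% of all genes tested. Spearman's rho of member FPKM between pairs of these 5 libraries lay between 0.969 and 0.990 over 93 members, and between 0.810 and 0.850 between sensitive replicate 2 and each of them. In sensitive replicate 2, 64 of the 93 were above all other libraries (68.8%, beside 25.99% of all genes), 14 were below and 15 lay within. It exceeded the median of the rest by more than a factor of 2 in 31 members (33.3%, beside 13.2% of all genes) and lay under 0.5 times that median in 5. In any other library at most 2 nuclear members exceeded the median of the rest by more than a factor of 2, and at most 5 lay under 0.5 times it.

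Of the 93 nuclear members tested, the CPM groups did not overlap in 3 that were higher and 1 that was lower in the resistant group, beside 5.01% and 3.38% of all genes tested. The former were Uqcrfs1, Sdhc and Ndufb4 and the latter was Ndufaf1, named after their values were seen where the rule did not name them. Uqcrfs1, the Rieske iron-sulfur protein of complex III (ENSMUSG00000038462, chromosome 13), was at 35.3, 28.8 and 66.7 FPKM in the sensitive and 80.2, 72.7 and 73.5 FPKM in the resistant replicates. This is a mean of 43.6 ± 20.3 against 75.5 ± 4.13 FPKM (SD, n = 3 each; exact permutation p = 0.1, two-sided, the smallest that 3 against 3 libraries can give). Its log2 fold change of 0.73 ± 0.31 (SE; edgeR unadjusted p = 0.0504, adjusted p = 0.940) was 0.55 without sensitive replicate 2, with an unadjusted p-value of 0.108 in that fit. Sensitive replicate 3 lay close to the resistant libraries and the other sensitive libraries lay well below. Sdhc and Ndufb4 differed from Uqcrfs1 in that sensitive replicate 2 alone lay far below.

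Among the 7 core subunits of complex I, which bind the flavin and the iron-sulfur clusters, 5 were above all other libraries in sensitive replicate 2. Ndufs7, whose iron-sulfur cluster hands electrons to ubiquinone, had the highest mean level and the largest fold change of this class. It was at 47.3, 142 and 39.4 FPKM in the sensitive and 60.3, 48.9 and 46.1 FPKM in the resistant replicates, a log2 fold change of −0.70 ± 0.54 (SE; edgeR adjusted p = 0.940) that was 0.26 without sensitive replicate 2. Ndufs3 was likewise highest in sensitive replicate 2, at 30.7, 78.3 and 27.1 against 34.6, 30.2 and 29.4 FPKM, with log2 fold changes of −0.66 and 0.12 with and without that library. Ndufs8, another iron-sulfur subunit, was at 51.01, 92.1 and 45.1 against 66.7, 45.2 and 41.5 FPKM. Ndufs1, the largest subunit, was the 1 core gene below the others there, at 0.619 of their median.

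The accessory subunits surround the core and stabilize it. They summed to 1218, 2791 and 1317 CPM in the sensitive and 1321, 1437 and 1305 CPM in the resistant replicates, so sensitive replicate 2 held 2.12 times the median of the other 5 libraries, the largest factor of the 7 nuclear classes. Of the 32 tested, 25 were above all others there and 3 below. Ndufb7, an accessory subunit of the membrane arm, was at 14.3, 84.5 and 14.99 FPKM in the sensitive and 16.4, 14.4 and 14.6 FPKM in the resistant replicates. Its count was 6726 in sensitive replicate 2 and between 1271 and 1540 in the others, so the log2 fold change of −1.49 ± 0.75 (SE; edgeR unadjusted p = 0.0872, adjusted p = 0.940) was 0.05 without that library. Ndufa2, an accessory subunit of the peripheral arm, was at 81.0, 483 and 82.8 FPKM in the sensitive and 98.6, 116 and 116 FPKM in the resistant replicates. Its log2 fold change went from −1.13 to 0.44 (unadjusted p = 0.0255, adjusted p = 0.984 by edgeR) when sensitive replicate 2 was left out, and the resistant libraries then all lay above the remaining sensitive ones. Ndufa8 and Ndufb11 were among the 3 accessory genes of highest mean FPKM, with 1.86 and 1.61 times the median of the others in sensitive replicate 2. Ndufb4, in contrast, was at 16.8, 6.64 and 18.7 FPKM in the sensitive and 18.7, 20.2 and 19.0 FPKM in the resistant replicates.

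The 8 Ndufaf assembly factors build complex I without staying in it, and they were the lowest class, with a median FPKM of 5.67 beside 40.9 for the core subunits. Ndufaf1, needed for the membrane arm intermediate, was at 9.13, 17.603 and 8.72 FPKM in the sensitive and 7.91, 7.68 and 8.66 FPKM in the resistant replicates, so sensitive replicate 3 lay just above the highest resistant library. Its log2 fold change was −0.65 ± 0.38 (SE; edgeR adjusted p = 0.940; exact permutation p = 0.1) and −0.14 without sensitive replicate 2. Ndufaf7, a methyltransferase, was at 3.97, 7.59 and 4.14 against 4.70, 3.52 and 4.25 FPKM. Ndufaf8 and Ndufaf3, other early assembly factors, ranged over all libraries from 12.5 to 18.3 FPKM and from 7.34 to 11.9 FPKM.

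Complex II, the one complex with no mitochondrially encoded subunit, was also the class least shifted in sensitive replicate 2, which held 0.920 of the median of the other libraries. Its summed level was 626, 617 and 670 CPM in the sensitive and 698, 685 and 615 CPM in the resistant replicates. Sdhd and Sdhc anchor the enzyme in the membrane. Sdhd was the highest of the 4, at 125, 116 and 133 FPKM in the sensitive and 146, 140 and 120 FPKM in the resistant replicates, and the groups overlapped. Sdhc was at 33.8, 19.0 and 37.4 FPKM in the sensitive and 38.3, 42.3 and 41.5 FPKM in the resistant replicates, a log2 fold change of 0.40 ± 0.24 (SE; edgeR adjusted p = 0.940) and 0.20 without sensitive replicate 2. Sdha, the flavoprotein, differed by −0.06 and Sdhb, its iron-sulfur partner, by −0.27 on the log2 scale with all libraries, and by −0.03 and −0.01 without sensitive replicate 2.

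In complex III, 5 of the 8 genes were above and Uqcrfs1 and Uqcrc2 below all other libraries in sensitive replicate 2. Uqcrq was at 66.7, 188 and 60.9 FPKM in the sensitive and 70.9, 71.7 and 77.6 FPKM in the resistant replicates, and Uqcr11 at 53.3, 166 and 69.3 against 62.9, 77.5 and 71.2 FPKM. Uqcr10, a further small subunit with the highest mean of the class, was at 84.2, 155 and 92.7 against 99.4, 105 and 97.3 FPKM. These 3 small subunits were among the 5 above. Uqcrc2, a core protein of the complex, was at 42.8, 16.1 and 46.4 FPKM in the sensitive and 42.9, 40.6 and 41.3 FPKM in the resistant replicates, so that the 5 other libraries lay within a narrow band.

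**Figure D4:**
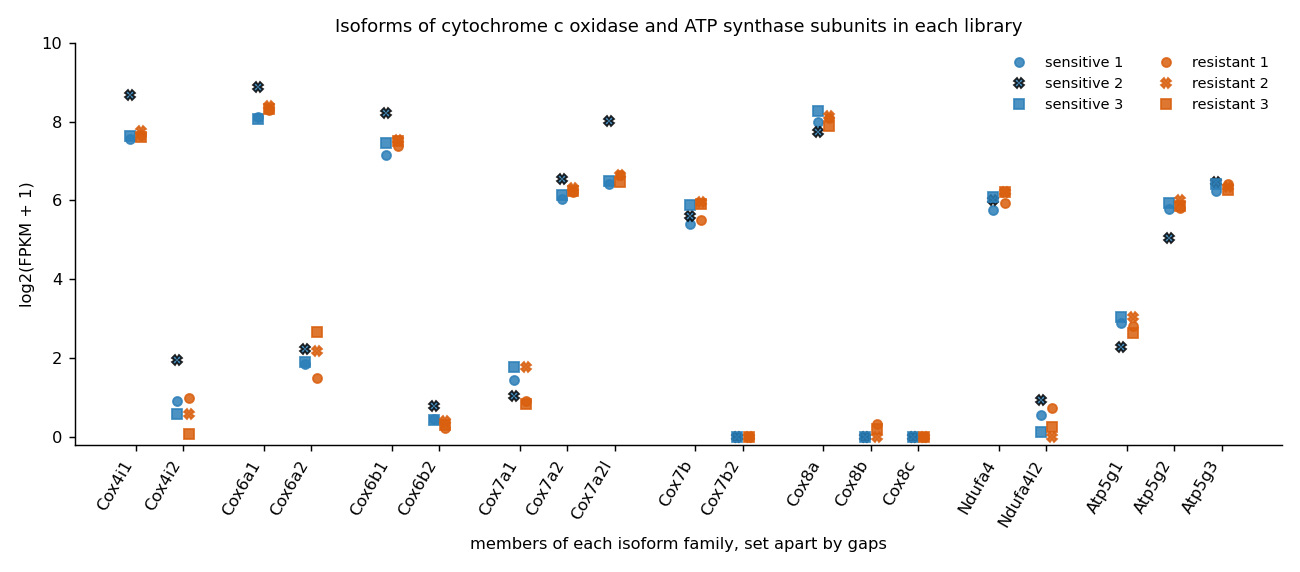
Log2(FPKM + 1) in each library for the isoform families of complex IV and of the ATP synthase c subunit, with blue symbols for sensitive and orange for resistant libraries and a black edge on sensitive replicate 2. Cox4i1, Cox6a1, Cox6b1, Cox7a2, Cox7a2l, Cox7b, Cox8a and Ndufa4 carried the signal, and Cox7b2 and Cox8c were listed at 0 in all 6 libraries.

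Several subunits of complex IV exist as isoforms that differ between tissues, and the widely expressed form prevailed in each family. Cox6a1 had the highest mean FPKM of all nuclear members, at 274, 470 and 269 in the sensitive and 315, 336 and 319 in the resistant replicates (mean 338 ± 114 against 323 ± 11.4, SD, n = 3 each). Its muscle form Cox6a2 was at 1.84 to 5.35 FPKM. Cox4i1 was at 186, 405 and 199 against 200, 216 and 194 FPKM, and Cox4i2, the form known from lung and from hypoxic cells, at 0.905, 2.88 and 0.494 against 0.980, 0.513 and 0.0660 FPKM (1 to 40 counts). Ndufa4 was at 53.2 to 73.3 FPKM, while its hypoxia-induced paralog Ndufa4l2 had 0 to 18 counts. The groups overlapped in all of these genes.

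In the other isoform pairs of complex IV, too, the widely expressed form prevailed. Cox8a was at 252, 211 and 310 FPKM in the sensitive and 272, 280 and 235 FPKM in the resistant replicates, against 0 to 2 counts for the muscle form Cox8b and 0 counts in every library for the testis form Cox8c, which at 3 counts as the limit for a count of 0 allows at most 0.170 CPM in the shallowest library. Cox7a2 was at 64.8 to 91.6 FPKM and the muscle form Cox7a1 at 0.778 to 2.46 FPKM. Cox6b1 was at 142 to 296 FPKM and the testis form Cox6b2 at 0.174 to 0.718 FPKM. Cox6b2, with 4 to 14 counts, was not tested, and its CPM was lower in every resistant than in every sensitive library. Cox7b was at 41.2 to 61.5 FPKM and Cox7b2 had no count. Of the 2 genes of complex IV with the largest fold changes, Cox7a2l, which joins respiratory complexes into supercomplexes, was at 85.2, 260 and 88.4 FPKM in the sensitive and 99.2, 99.4 and 87.3 FPKM in the resistant replicates. Cox5b was at 52.0, 90.2 and 64.1 against 58.2, 52.7 and 43.4 FPKM, with log2 fold changes of −0.52 ± 0.30 (SE; edgeR adjusted p = 0.940) and −0.18 without sensitive replicate 2.

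The ATP synthase genes summed to 2763, 4098 and 2928 CPM in the sensitive and 3058, 2930 and 2844 CPM in the resistant replicates. The large alpha and beta subunits were close in all libraries. Atp5a1 (alpha) was at 204, 246 and 205 FPKM in the sensitive and 235, 207 and 216 FPKM in the resistant replicates, and Atp5b (beta) at 186, 224 and 190 against 205, 180 and 174 FPKM. Atp5e, Atp5k and Atp5d, which encode small subunits, were far higher in sensitive replicate 2. Atp5e (epsilon) had 8973 counts there and 1587 to 1922 in the others, or 46.0, 290 and 53.2 FPKM against 52.0, 54.2 and 54.8 FPKM in the resistant replicates, and its log2 fold change went from −1.44 ± 0.76 (SE; edgeR unadjusted p = 0.0989, adjusted p = 0.940) to 0.11 without that library. Atp5k, a membrane subunit, was at 29.2, 109 and 33.5 against 42.1, 37.7 and 34.9 FPKM. Atp5d (delta), at 78.4, 176 and 70.9 against 96.9, 89.9 and 85.6 FPKM, had a log2 fold change of −0.38 with and 0.29 (unadjusted p = 0.0436, adjusted p = 0.984 by edgeR) without that library.

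The c ring of ATP synthase is encoded by 3 genes with the same mature protein. By deposited FPKM, Atp5g3 was the highest, at 74.6 to 87.1, followed by Atp5g2 at 32.4 to 63.8 and Atp5g1 at 3.89 to 7.31. An annotated transcript of Atp5g1 has 4715 bases, beside 731 for one of Atp5g2. How far Atp5g1 lies below Atp5g2 thus depends on the length used for FPKM. Atp5g3 and Atp5g2 did not overlap in any library, and Atp5g2 and Atp5g1 were lowest in sensitive replicate 2. Atp5g1 has a near-identical annotated copy, Gm10039, with 902 to 1178 counts, more than Atp5g1 itself had in every library.

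Near-identical copies of at least 99% identity over a read length were annotated for 12 nuclear members, all of them tested, and their values are uncertain to the extent that reads were shared. Ndufa12 was at 5.42, 19.6 and 14.8 FPKM in the sensitive and 6.61, 16.4 and 5.24 FPKM in the resistant replicates, so sensitive replicate 3 and resistant replicate 2 were near sensitive replicate 2. Its copy Ndufa12-ps had more counts than Ndufa12 in all 6 libraries, at 540 to 724. Ndufb4c is itself the copy of Ndufb4 and had 4 to 32 counts. Only the copy with the longest match was kept for each member, nuclear or mitochondrial, so counts of any further copies were not compared. The remaining copies kept (of Atp5g2, Atp5h, Atp5l, Atp5md, Cox5b, Cox7a2l, Cox7c, Ndufab1 and Ndufs5) had fewer counts than their genes in every library.

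**Figure D5:**
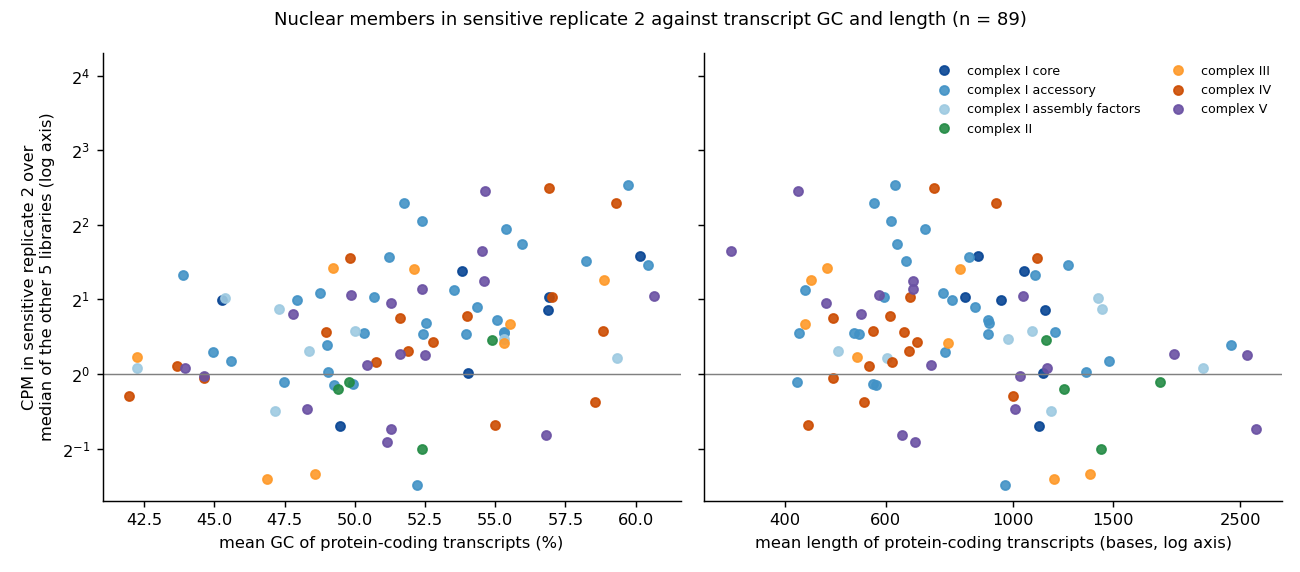
CPM of 89 nuclear members in sensitive replicate 2 over the median of the other 5 libraries (log axis), against the mean GC content (left) and the mean length (right, log axis) of their protein-coding transcripts, colored by class. The ratio is higher among GC-rich members (Spearman's rho 0.41) and lower among long ones (rho −0.25), with wide scatter.

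Transcript GC content and length were set beside the place of each nuclear member in sensitive replicate 2. Median GC content of the protein-coding transcripts was 52.5% in 61 members above, 49.9% in 13 below and 47.5% in 15 within the range of the other libraries, and median length was 718.5, 1110 and 1001 bases. Over all genes tested the deposited length, too, was shorter in those above (median 2493 bases) than in those below (5053 bases), beside 1525.5 and 1848.5 bases for the members, so the direction was not particular to them. A GC content was at hand for 3055 of the 4021 genes above, 6378 of the 7363 below and 3285 of the 4090 within. Their median GC content was 53.9%, 49.2% and 51.7%. The higher GC content above than below was thus not particular to the members either. Over the 89 members with a value, the log2 ratio of sensitive replicate 2 to the median of the rest had a Pearson r of 0.37 and a Spearman rho of 0.41 with GC content, and −0.29 and −0.25 with log2 length, all of which describe a single library. Split at the medians of 763 bases and 51.7% GC, the median ratio was 2.11 in 24 short, GC-rich members and 1.06 in 24 long, GC-poor members, with 1.23 in 21 short, GC-poor and 1.63 in 20 long, GC-rich members. Neutrophil markers were also highest in this library, at 6905 CPM, and the part of GC content, length or cell composition in the members' values was not tested.

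Gene lists around oxidative phosphorylation held 0 adjusted calls by edgeR, so they too are given by their values. Of 77 mitochondrial ribosomal protein genes tested, which make the proteins encoded in the mitochondrion, 53 were above all other libraries in sensitive replicate 2 and the summed level there was 1.53 times the median of the rest, beside 1.55 times for the nuclear members. Their median log2 fold change was −0.19, and 0.07 without that library. The 16 citrate cycle genes tested summed to 1821, 1562 and 1702 CPM in the sensitive and 1989, 1899 and 1789 CPM in the resistant replicates, and their median log2 fold change was 0.03, or 0.06 without sensitive replicate 2. Cs, citrate synthase, was at 186, 106 and 187 against 199, 211 and 198 CPM and did not overlap between the groups.

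The list of regulators of mitochondrial biogenesis was low in sensitive replicate 2, where its summed level was 0.668 of the median of the rest. Of its 16 genes tested, 0 were above all other libraries and 10 below (62.5%), beside 25.99% and 47.6% of all genes tested. The median ratio per gene was 0.624, beside 0.793 over all genes tested. The median log2 fold change of the list was 0.17 with and 0.000097 without sensitive replicate 2. Ppargc1a, the coactivator that drives biogenesis in oxidative tissues, was at or below 0.354 CPM. Tfam, the packaging factor of mitochondrial DNA, was at 34.7, 34.0 and 33.1 CPM in the sensitive and 38.4, 32.5 and 34.3 CPM in the resistant replicates, so sensitive replicate 2 did not stand apart in it. Polrmt, the mitochondrial RNA polymerase, was at 27.9, 18.2 and 23.7 against 33.7, 25.9 and 29.4 CPM. For 15 genes of mitochondrial import, chaperones and channels, used here for mitochondrial mass, the sum in sensitive replicate 2 was 1.11 times the median of the rest. For 12 genes of electron carriers and cytochrome c it was 0.717 times, and for 32 further assembly genes 1.24 times; their median log2 fold changes were −0.01, 0.10 and −0.09, and 0.09, 0.11 and 0.06 without that library.

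Members that share promoter motifs were counted in RefSeq promoter windows (GRCm38.p6; 250 bases before to 50 after each start), which were matched by symbol, synonym or gene identifier for 77 of the 100 nuclear members and for 27025 genes in all. NRF1, a factor known for binding promoters of respiratory genes, has the core GCGCATGC. On either strand it occurred in 12 of the 77 (15.6%), beside 3.05% of all genes with a window. The 27025 genes were not limited to expressed ones, whereas 74 of the 77 members passed the filter on low counts. The ETS core CCGGAAG, the kind bound by GABP, occurred in 24.7% beside 9.93%, and AAGATGGC, a YY1 core, in 14.3% beside 3.19%. Overlaps between matches of different motifs were not counted. The NRF1 core and its reverse complement GCATGCGC share most of their letters and can both match at the same place. A match is a description of these letters and not of binding. The 12 members with the NRF1 core had a median ratio of 1.48 in sensitive replicate 2, beside 1.48 over the 93 nuclear members tested. Of the 12, 9 were above all other libraries there, beside 64 of the 93 (68.8%), so those with the motif did not stand apart. The windows of the highest member with a match in complexes I, II, III and IV are shown with the matched letters in capitals, on the strand of the gene: Cox6a1 (chr5:115349087-115349146, minus strand), Ndufa8 (chr2:36049313-36049372, minus strand), Uqcr11 (chr10:80406792-80406851, minus strand) and Sdhb (chr4:140961191-140961250, plus strand).
Cox6a1: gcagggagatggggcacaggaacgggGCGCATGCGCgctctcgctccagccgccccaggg
Ndufa8: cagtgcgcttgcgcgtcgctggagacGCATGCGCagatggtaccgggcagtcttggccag
Uqcr11: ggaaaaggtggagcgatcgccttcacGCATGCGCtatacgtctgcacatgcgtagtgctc
Sdhb: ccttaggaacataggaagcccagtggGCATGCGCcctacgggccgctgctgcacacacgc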

How the data were processed

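RNA-seq counts of cells labelled as LSECs were analysed, with 3 libraries in the sensitive and 3 in the resistant group as the sample titles give them. Per the labels, reads were aligned with HISAT2 2.0.5 and counted on genes with featureCounts 1.5.0-p3, with mm9 named as the build. The authors deposited whole-number counts without normalization and FPKM values, which equal the count over the library total and 1 length per gene. That length can exceed the transcript, as for Ndufb7 (4522 bases against a mean of 623), so FPKM then understates the level. A further table of the authors' own comparison (fold changes and p-values) was not used. Identifiers were matched to GENCODE M21 (GRCm38), which gave coordinates, GC content and transcripts, and copies were searched with BLAST+ 2.17.0.

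The whole count table was fitted with edgeR 4.0.16 in R 4.3.3 (filterByExpr, TMM, robust quasi-likelihood test, two-sided, Benjamini-Hochberg adjustment over 15474 genes, threshold 0.05). The procedure was also run on simulated counts, in which no library stood apart as sensitive replicate 2 does here. That run therefore cannot show how the test performs with such a library. SEs are those implied by the F statistic. DESeq2 1.42.0 and limma 3.58.1 were alternatives, with other normalizations and filters, log2(FPKM + 1), each library left out in turn and a replicate block. With 3 libraries a group, the smallest exact permutation p is 0.1. Floors cover counting error only. Replicates of a group differed by more than counting error.

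Members, gene lists and tests were chosen with earlier results of these data known. Genes named are the mitochondrial members, in each class the 3 of highest mean FPKM and the 2 of largest fold change with an average log2 CPM of at least 3, the isoform families, and up to 3 genes of each further list. Other genes (Ndufb4, Ndufs1, Uqcrc2, Ndufa11, Ndufa12, Ndufs6b and those with copies or an annotated pseudogene) were named after their values were seen. Values of 1 complex I member are not reported here; it stays in all counts, sums and medians.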

Additional observations from a re-analysis of the deposited data

How the results depend on the processing

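The number of members with an adjusted p-value under 0.05 was 0 in every fit run. Over all genes it was 24 with DESeq2 and 2 with no filter instead of 0, and the number at an unadjusted p-value under 0.05 was 732 and 2036 instead of 476, with a range of 167 (without resistant replicate 3) to 1056 (without sensitive replicate 3) when a library was left out. Nuclear members at an unadjusted p-value under 0.05 numbered 4 with DESeq2, 2 with no filter, and 1 each with limma-voom, library totals alone, at least 10 counts in every library and log2(FPKM + 1), instead of 0, and 0 to 8 with a library left out (8 or 8.6% without sensitive replicate 1, where 3.76% of all genes were called, and 5 or 5.38% without sensitive replicate 3, where 6.53% were). All genes called were 2.48% with limma-voom, 2.46% with library totals, 5.98% with no filter, 3.22% with the count minimum, 3.06% with log2(FPKM + 1) and 3.02% with the block. Mitochondrial members numbered 2 with no filter, 1 with library totals alone and 1 with log2(FPKM + 1), and 0 to 2 with a library left out (2 of 12 without resistant replicate 1, where 3.91% of all genes were called). The nuclear median log2 fold change ran from −0.43 to 0.09 and the mitochondrial one from 0.07 to 1.08 with a library left out, the values 0.0904 (a change of sign) and 0.0744 being those without sensitive replicate 2. The log2 ratio of the mitochondrial members' share of counts was 0.56 and ran from 0.07 (without sensitive replicate 2) to 1.18. With the replicate block there were 1 nuclear and 0 mitochondrial members at an unadjusted p-value under 0.05 by edgeR, with medians of −0.20 and 0.92. The mean log2 share ratio of same-numbered libraries was 1.04. The value of 0.56 is the log2 ratio of group means, another statistic, so the difference shows no effect of the block. Across genes, deviations of same-numbered libraries from their group means correlated at −0.00093, 0.034 and 0.194, the last above the limit of 0.1 set for pairing. Sensitive replicate 2 enters these deviations, so they cannot decide whether the numbers are pairs. The main fit treated the libraries as unpaired. Chosen after seeing the data, leaving out members with copies gave medians of −0.26 (nuclear, annotated pseudogenes left out too) and 0.54 (mitochondrial), and leaving out assembly factors −0.29. Of 791 log2 fold changes of named members under an alternative, 53 had the opposite sign, 26 of them without sensitive replicate 2. Counting at 3 counts limits single libraries to 0.145 to 0.170 CPM.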

Other observations

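The tRNA genes of the mitochondrial genome, 7 of 22 of which were tested, summed to 18.7, 8.75 and 25.5 CPM in the sensitive and 20.8, 28.5 and 33.8 CPM in the resistant replicates, and mt-Tp, the tRNA for proline, was at 0.795 CPM in sensitive replicate 2 and between 9.22 and 19.7 CPM in the others. Gm6969, an annotated pseudogene with a stretch of 201 bases identical to Cox7a2l, had 430 counts in resistant replicate 3 and 9 to 21 in the other libraries, while Cox7a2l itself did not stand apart there. Cox6c2, an annotated pseudogene that the symbol rule kept, was at 7.13 FPKM in sensitive replicate 2 and between 0.441 and 2.63 FPKM in the others. These genes were chosen after their values were seen.

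Etfb, the beta subunit of the electron transfer flavoprotein that feeds electrons from fatty acid oxidation to the ubiquinone pool, was at 10.8, 65.3 and 6.28 CPM in the sensitive and 12.3, 9.86 and 8.999 CPM in the resistant replicates. Its partner Etfdh, which hands those electrons on, was at 37.1, 15.1 and 37.5 CPM in the sensitive and 41.6, 44.0 and 49.2 CPM in the resistant replicates, so the groups did not overlap. Neither passed adjustment in edgeR, and the difference between sensitive replicate 2 and the other libraries ran in opposite directions for these partners.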
